A study of Rattus norvegicus with 52 samples.

Results

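Luminal progenitors (LP) of Cdkn1b-/- rats were compared with mature luminal cells of the same genotype. The question was which differences between these sorted populations remain without p27, the cyclin-dependent kinase inhibitor encoded by Cdkn1b, and which are lost. The libraries were taken by their labels: 4 LP libraries (PNA+ 1, PNA+ 2, Cd49b+ 1 and Cd49b+ 2) and 2 mature luminal libraries (numbered 1 and 2), which are 6 of the 52 samples in the series. The series also holds basal cells, younger rats, rats given estrogen and ChIP-seq of the progesterone receptor. All 6 libraries came from mammary glands of ACI females aged 9 weeks and carrying CRISPR deletions in both copies of Cdkn1b. Deletions of this kind, named DEL-32 and DEL-65, were made in exon 2 on an outbred background and crossed onto ACI, and the labels do not say which of these alleles a library carries. The paper sorted cells of both genotypes from an early and a later backcross generation. The labels do not give the generation of a library either, so how far its background was ACI is not known. LP were sorted as Cd24+ Cd29LOW cells that also bound peanut agglutinin (PNA+) or carried the integrin Cd49b (Cd49b+), and mature luminal cells as Cd24+ Cd29LOW Cd49b- PNA- cells. The same 4 and 2 libraries of Cdkn1b+/+ ACI females of that age served for comparison. Neither the labels nor the methods say whether the PNA+ and Cd49b+ gates exclude each other, or whether a library pools animals.

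The ducts of the mammary gland have an outer basal layer and an inner luminal layer. The luminal layer holds progenitors, known for Kit, Elf5 and Aldh1a3 and for giving rise to milk-secreting alveolar cells, and mature cells that sense ovarian hormones through Esr1 and Pgr. Prolactin acts through its receptor Prlr and Stat5 to turn on milk protein genes, and p27 holds cells in G1 by binding cyclin-CDK complexes.

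The 6 libraries had between 22297846 and 33859550 reads on genes. Cdkn1b, the targeted gene, stood at 2.35, 2.2, 1.8 and 2.4 CPM in the Cdkn1b-/- LP libraries PNA+ 1, PNA+ 2, Cd49b+ 1 and Cd49b+ 2, and at 2.4 and 3.86 CPM in mature luminal libraries 1 and 2 (CPM: reads of the gene relative to all reads on genes of the library, scaled with edgeR's TMM factors). In the Cdkn1b+/+ libraries, in the same order, it stood at 9.35, 7.68, 10.7 and 6.15 CPM and at 9.75 and 6.47 CPM. Every Cdkn1b-/- library was below every Cdkn1b+/+ library. Values below are given in this order, LP first. Since these are bulk samples, fewer cells of a type and less RNA per cell cannot be told apart.

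The labels were set against marker genes. The Kit receptor, which marks LP, stood at 268, 71.2, 318 and 47.4 CPM in LP and at 309 and 51.9 CPM in mature luminal cells of Cdkn1b-/- rats. It followed the library's number and not the sorted population. Aldh1a3, an aldehyde dehydrogenase used to find LP, stood at 52.4, 12.1, 47.2 and 3.83 CPM and 46.2 and 3.95 CPM and did the same. Elf5, the alveolar transcription factor, was higher in both mature luminal libraries than in 3 of the 4 LP libraries. Itga2, the gene for Cd49b itself, was not analysed here. Of 11 LP markers 10 were tested, and 7 of them had a negative log2 fold change in Cdkn1b-/- rats (LP minus mature luminal), where 55.6% of all genes did, and 7 in Cdkn1b+/+ rats, where 53.5% did. None was called higher in LP of either genotype. LP and mature luminal are used below as names of gates. Whether the populations carry swapped or mixed names was not tested, and a swap would turn the sign of every LP minus mature luminal value.

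Library Cd49b+ 2 of the Cdkn1b-/- rats stood apart. The 13 genes of the basal list in the files summed there to 6672 CPM (of reads on genes), against 851 to 1342 CPM in the other Cdkn1b-/- LP libraries, 824 to 1133 CPM in the mature luminal libraries and 28430 to 47523 CPM in the 4 basal libraries. The 10 genes of the endothelial list summed to 1318 CPM there, against 141 to 328 CPM in the other LP libraries and 101 to 111 CPM in the mature luminal libraries. Medians over gene lists are given with and without it, as are fold changes of some of the genes that moved with it.

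**Figure D1:**
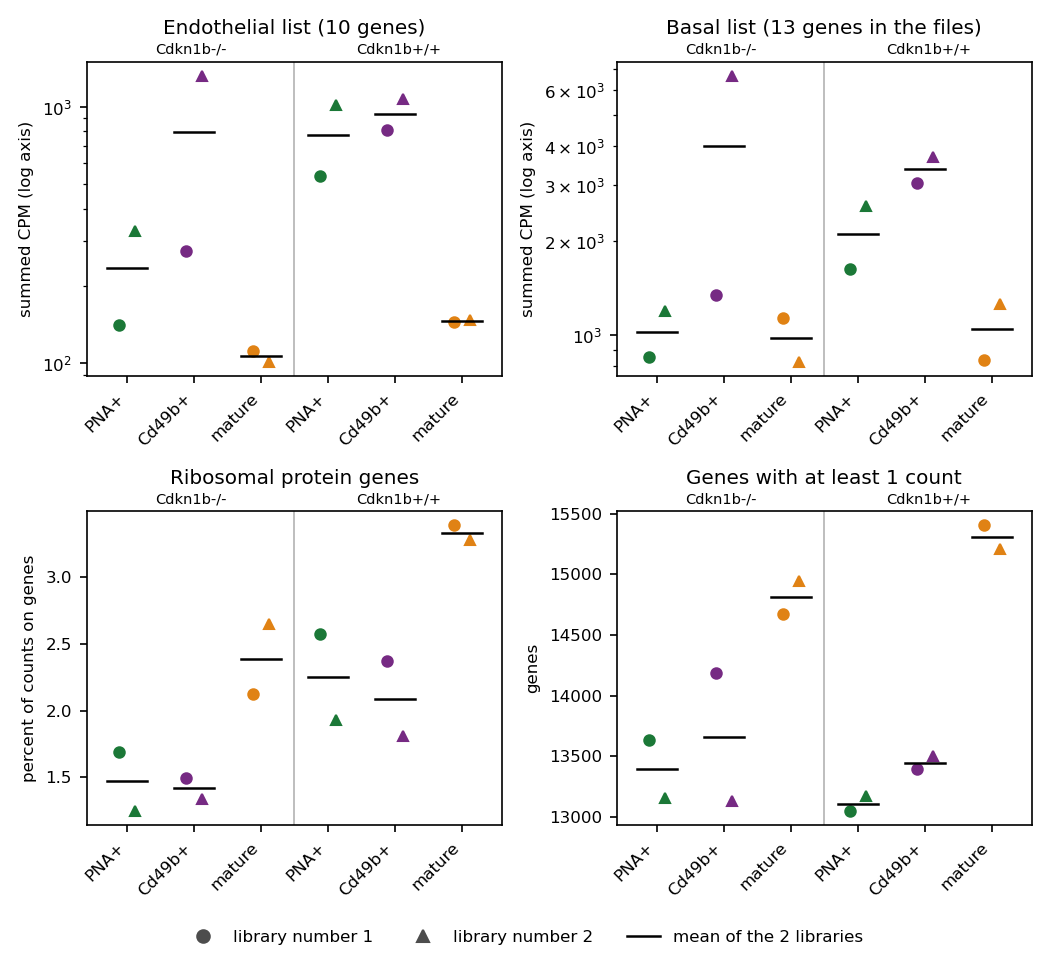
Summed CPM of the endothelial and basal lists (log axes), percent of counts on ribosomal protein genes and number of genes with at least 1 count in the 12 luminal libraries, 1 point per library by genotype and population, with a line at the mean of 2 libraries. Cdkn1b-/- library Cd49b+ 2 lies at 6672 CPM for basal and 1318 CPM for endothelial genes, above the other Cdkn1b-/- LP libraries, and every LP library lies below the mature luminal libraries of its genotype for ribosomal protein genes and for genes with a count.

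No gene passed the test between Cdkn1b-/- LP and mature luminal cells once p-values were adjusted to a false discovery rate of 0.05 (edgeR, quasi-likelihood test, Benjamini-Hochberg method, 12809 genes tested): 0 were higher (0%) and 0 lower (0%) in LP, and the smallest adjusted p was 0.148. At an unadjusted p under 0.05, 1115 genes (8.7%) were higher and 1139 (8.89%) lower. DESeq2 called 348 genes higher (2.12%) and 216 lower (1.31%). In Cdkn1b+/+ rats, the edgeR test called 641 genes higher (5%) and 765 lower (5.97%) in LP, and DESeq2 called 1063 (6.46%) and 1574 (9.57%).

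Libraries of the same number deviated together, and the number was therefore also fitted as a block. This changed the call: 110 genes were then higher (0.859%) and 118 lower (0.921%) in Cdkn1b-/- LP, and 2020 (15.8%) and 2386 (18.6%) in Cdkn1b+/+ LP. The 228 Cdkn1b-/- calls lay at the threshold, with a smallest adjusted p of 0.0463 and 0 genes under 0.045. With the PNA+ and Cd49b+ libraries of a number summed to 1 library, and no block, 0 genes passed in either genotype (smallest adjusted p 0.276 in Cdkn1b-/- and 0.0781 in Cdkn1b+/+ rats, with 1581 and 2600 genes at an unadjusted p under 0.05). The 228 calls count both gates of a number as separate libraries. They also turned on single libraries: with the block, the count was 2 without Cd49b+ 2, 0 without Cd49b+ 1, 0 without PNA+ 2, 2705 without PNA+ 1, 1 without mature luminal library 1 and 0 without mature luminal library 2. Without the block, leaving out PNA+ 1 gave 122 genes. The Cdkn1b+/+ count without the block fell to 0 without Cd49b+ 2, PNA+ 2, mature luminal library 1 or mature luminal library 2 of that genotype, and to 584 without Cd49b+ 1. In what follows, genes of the Cdkn1b-/- comparison are said to pass only under the block, and are then named so. Calls in Cdkn1b+/+ rats are without the block unless it is named, and of all genes 5% were called higher and 5.97% lower there.

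The difference between the genotypes in the LP minus mature luminal contrast was tested as an interaction. It gave 0 genes by edgeR and 0 by DESeq2. At an unadjusted p under 0.05 the edgeR test had 99 genes (0.773%) higher and 125 (0.976%) lower in the Cdkn1b-/- contrast, and DESeq2 had 264 in all. With the block it gave 0 again, with 211 (1.65%) and 368 (2.87%) at an unadjusted p under 0.05. No gene was thus shown to lose or gain its difference without p27.

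Direction was shared between genotypes for the genes higher in LP. Of the 641 genes higher in Cdkn1b+/+ LP, 638 (99.5%) also had a positive log2 fold change in Cdkn1b-/- rats, where 44.3% of all genes did. Of the 765 lower genes, 758 (99.1%) had a negative one, where 55.6% of all genes did. However, 513 of the 765 had a mean log2 CPM below 0, and a gene can pass the filter through the mature luminal libraries alone. Where LP libraries lie near 0 CPM, a positive value can hardly arise. The share for the lower genes is therefore no test of a shared direction. An unadjusted p under 0.05 in the same direction was found in Cdkn1b-/- rats for 461 (71.9%) of the higher and 556 (72.7%) of the lower genes. Under the block, 65 of the 641 and 67 of the 765 passed.

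Sizes were smaller in Cdkn1b-/- rats. Among called genes with a mean log2 CPM above 2, the 603 higher ones had a median log2 fold change of 1.23 in Cdkn1b+/+ and 0.79 in Cdkn1b-/- rats, and the 233 lower ones of -0.84 and -0.58. Without Cd49b+ 2, the Cdkn1b-/- medians were 0.73 and -0.52. Most of the 765 lower genes had few reads, with 513 at a mean log2 CPM below 0, and over all 765 the medians were -4.16 in Cdkn1b+/+ and -2.28 in Cdkn1b-/- rats, sizes that for such genes depend on the prior count of the fit. The 641 higher genes had a median within-number difference of 0.55 for number 1 and 1.00 for number 2 in Cdkn1b-/- rats, and of 1.07 and 1.41 in Cdkn1b+/+ rats. The 765 lower genes had -0.84 and -2.07, and -2.66 and -2.36. Since these genes were chosen for their size in Cdkn1b+/+ rats, the smaller Cdkn1b-/- medians are a description.

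Read in the other direction, the 110 genes higher in Cdkn1b-/- LP under the block had a median log2 fold change of 0.91 there and of 0.99 in Cdkn1b+/+ rats. Of these, 104 (94.5%) were also called higher in Cdkn1b+/+ LP under the block, which is 5.15% of that genotype's 2020. Of the 118 lower genes, 97 (82.2%) were also called lower, which is 4.07% of 2386. A single gene was called in opposite directions under the block, Spp1, which encodes osteopontin and is named here after its values were seen. It was low, at a mean log2 CPM of 0.54, and its Cdkn1b-/- groups overlapped. Without the block its log2 fold changes were -1.90 in Cdkn1b-/- and 1.31 in Cdkn1b+/+ rats (adjusted p = 0.191 and 0.269, edgeR). Its interaction did not pass with or without the block (adjusted p = 0.524 with it, edgeR), so that a reversal was not shown.

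**Figure D2:**
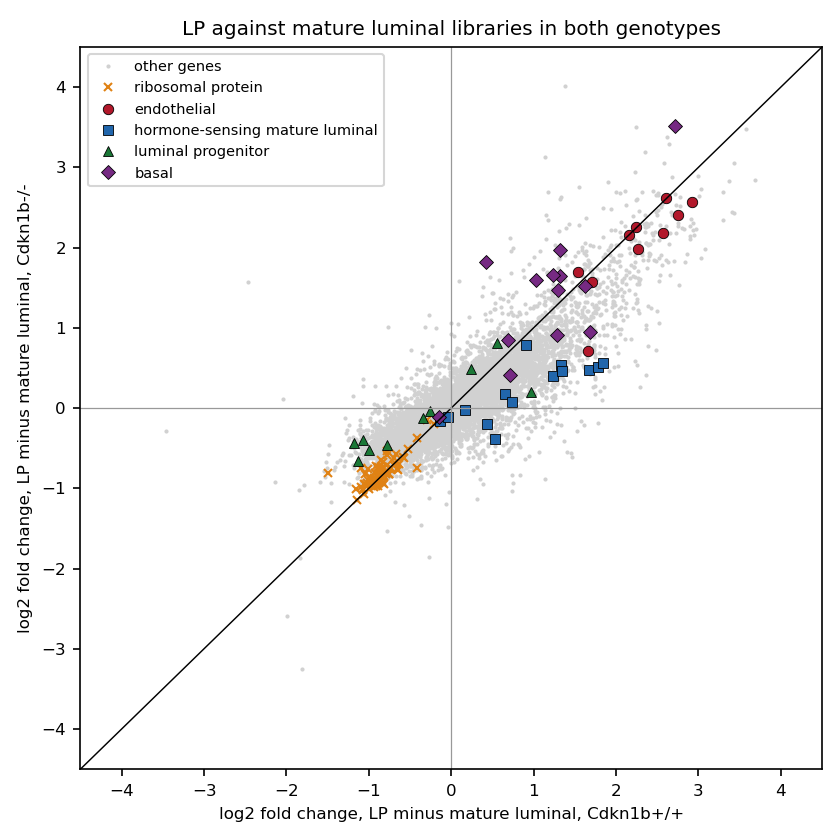
Log2 fold change of LP minus mature luminal cells in Cdkn1b-/- rats (vertical axis) against the same in Cdkn1b+/+ rats (horizontal axis), 1 point per gene with a mean log2 CPM above 2, with 5 gene lists marked and equal values on the diagonal line. Endothelial genes lie at the upper right and ribosomal protein genes at the lower left, with medians of 2.17 and -0.81 on the vertical axis over all their tested genes.

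Endothelial genes had the highest median log2 fold change of the 21 lists in both genotypes. All 10 tested members had a positive log2 fold change in Cdkn1b-/- LP and a median of 2.17 against -0.08 over all genes, and 8 of the 10 did not overlap between LP and mature luminal libraries (10.8% of all genes did so in this direction). In Cdkn1b+/+ rats the median was 2.26 against -0.06, and 5 of 10 were called higher (5% of all genes). In Cdkn1b-/- rats 9 were higher at an unadjusted p under 0.05 (8.7% of all genes) and none passed under the block (0.859% of all genes did as higher). Without Cd49b+ 2 the Cdkn1b-/- median was 1.23. Within numbers, the median difference was 0.69 for number 1 and 2.86 for number 2 in Cdkn1b-/- rats, and 1.99 and 2.47 in Cdkn1b+/+ rats.

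Kdr, the VEGF receptor of endothelial cells, stood at 13.2, 23.9, 29.3 and 79.7 CPM in Cdkn1b-/- LP and at 8.33 and 4 CPM in mature luminal cells. All 4 LP libraries were above both mature luminal libraries, with Cd49b+ 2 the highest. On the log2 scale LP lay 2.57 ± 0.67 above mature luminal cells (± standard error, with an adjusted p of 0.148, or 0.052 under the block, by edgeR's quasi-likelihood test) and 2.92 ± 0.68 above them in Cdkn1b+/+ rats (adjusted p = 0.0225). Without Cd49b+ 2 the Cdkn1b-/- value was 1.85. Cdh5, the cadherin of endothelial junctions, stood at 22.7, 50.8, 50.5 and 155 CPM and 16.8 and 9.68 CPM, with log2 fold changes of 2.40 in Cdkn1b-/- (1.65 without Cd49b+ 2) and 2.75 in Cdkn1b+/+ rats. The groups did not overlap here either. Tek, the angiopoietin receptor, stood at 6.48, 16, 10.2 and 48.8 CPM and 3.78 and 2.84 CPM, and its log2 fold changes were 2.62 (1.72 without Cd49b+ 2) and 2.60. Pecam1 encodes Cd31, against which an antibody of the sort was directed, and stood at 27.6, 59.6, 49.2 and 195 CPM and 22.2 and 14.3 CPM. Cldn5, the claudin of endothelial tight junctions, stood at 5.77, 23.3, 8.81 and 57.6 CPM and 6.23 and 22.8 CPM, so that its groups overlapped, and its log2 fold change of 0.72 turned to -0.20 without Cd49b+ 2. The part of endothelial cells in these differences was not tested.

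Selectins and other vascular genes were taken as a further list. The 8 genes of this added list, chosen after their values were seen, had a median log2 fold change of 2.80 in Cdkn1b-/- (1.99 without Cd49b+ 2) and 2.75 in Cdkn1b+/+ rats, and 3 passed under the block in Cdkn1b-/- rats (0.859% of all genes). Within numbers the Cdkn1b-/- median difference was 1.30 for number 1 and 3.64 for number 2. Sele, the E-selectin that binds leukocytes, stood at 26.7, 88.4, 64.1 and 224 CPM in LP and 12.3 and 5.77 CPM in mature luminal cells. Every LP library was above both mature luminal libraries. Without the block its log2 fold change reached 3.48 (standard error 0.73, adjusted p = 0.148 by edgeR's quasi-likelihood test), or 2.73 without Cd49b+ 2, against 3.58 in Cdkn1b+/+ rats. Under the block it was 3.21 (standard error 0.695, adjusted p = 0.0463 by the same test) in Cdkn1b-/- rats. Selp, the P-selectin, stood at 152, 424, 285 and 1252 CPM and 89.2 and 77.6 CPM. Cd200, a surface glycoprotein of endothelial and other cells, stood at 189.9, 147, 161 and 224 CPM and 67.1 and 88 CPM, and did not overlap. It passed under the block (log2 fold change 1.23 in that fit, adjusted p = 0.0463, edgeR). Its LP libraries spread less than those of the selectins.

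Basal genes were less alike between the libraries. The 13 tested members had a median log2 fold change of 1.53 in Cdkn1b-/- and 1.28 in Cdkn1b+/+ rats, but of 0.04 in Cdkn1b-/- rats without Cd49b+ 2. In Cdkn1b-/- rats 1 of 13 was higher without overlap (10.8% of all genes). Within numbers the median difference was -0.20 for number 1 and 1.82 for number 2. Myh11, the smooth muscle myosin, stood at 26.1, 112, 89.1 and 733 CPM and 25.8 and 16.3 CPM, and Cd49b+ 2 was the highest by far. Krt5, the basal keratin, stood at 11.5, 17.4, 35.2 and 168 CPM and 28.4 and 13.3 CPM. Acta2, smooth muscle actin, stood at 6.88, 10.7, 15.2 and 111 CPM and 13.1 and 9.72 CPM. For both genes the other 3 LP libraries overlapped the mature luminal libraries, and the log2 fold changes of 1.48 and 1.66 were 0.04 and -0.06 without Cd49b+ 2. No basal gene passed in either genotype without the block.

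Of 9 tested fibroblast genes, Pdgfrb alone was called in Cdkn1b+/+ rats. This receptor of pericytes and fibroblasts stood at 8.48, 14.8, 16.5 and 53.8 CPM and 10.8 and 2.79 CPM in Cdkn1b-/- LP and mature luminal cells, which overlapped, and at 27.2, 62, 44.3 and 65.4 CPM and 6.56 and 10.3 CPM in Cdkn1b+/+ cells, which did not. The list's median was -0.28 in Cdkn1b-/- (-0.68 without Cd49b+ 2) and 0.55 in Cdkn1b+/+ rats. Within numbers the Cdkn1b-/- pairs had opposite signs, with a median difference of -1.47 for number 1 and 0.99 for number 2. Of 6 tested adipocyte genes, 2 were called higher in Cdkn1b+/+ LP, and none passed in Cdkn1b-/- rats. Pparg, the adipocyte transcription factor that endothelial cells also express, stood at 4.13, 5.17, 5.94 and 16.7 CPM and 3.42 and 1.67 CPM in Cdkn1b-/- rats without overlap. Fabp4, a fatty acid carrier, stood at 197, 178, 247 and 469 CPM and 226 and 123 CPM, which overlapped. Adipoq, which defines adipocytes, was under 1 CPM in all 12 luminal libraries. The 8 Schwann cell genes had medians of 0.07 (0.01 without Cd49b+ 2) and 0.35, and none was called in either genotype.

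**Figure D3:**
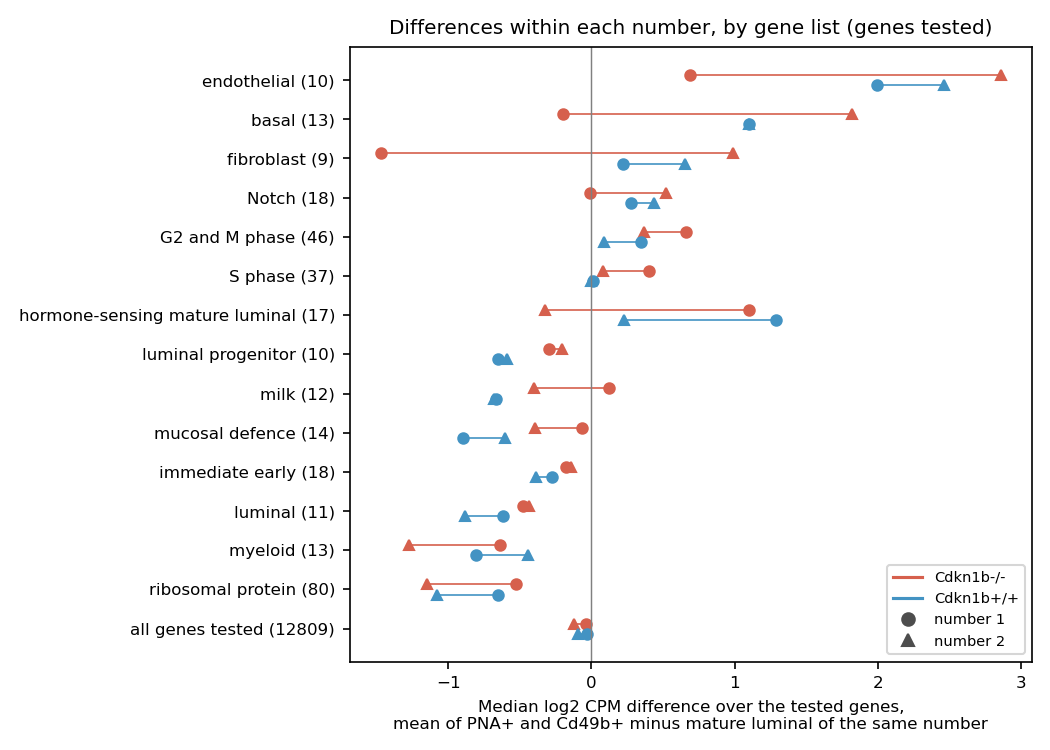
Median difference in log2 CPM over the tested genes of each list, the mean of the PNA+ and Cd49b+ libraries minus the mature luminal library of the same genotype and number, with 1 point per genotype and number. Endothelial genes lie at 0.69 and 2.86 in Cdkn1b-/- and at 1.99 and 2.47 in Cdkn1b+/+ rats, basal genes at -0.20 and 1.82 in Cdkn1b-/- rats, and ribosomal protein genes below 0 in all 4 pairs.

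Of 17 tested hormone-sensing genes, 3 were called higher in Cdkn1b+/+ LP (Pgr, Prlr and Foxa1, where 5% of all genes were) and 1 lower (Calcr, where 5.97% were). None passed in Cdkn1b-/- rats with or without the block. The list's median was 0.17 in Cdkn1b-/- (0.13 without Cd49b+ 2) and 0.74 in Cdkn1b+/+ rats. No member was higher without overlap in Cdkn1b-/- rats, where 10.8% of all genes were, and 8 were in Cdkn1b+/+ rats, where 22.3% of all genes were. Within numbers, the median difference was 1.10 for number 1 and -0.33 for number 2 in Cdkn1b-/- rats, and 1.29 and 0.22 in Cdkn1b+/+ rats.

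Pgr, the progesterone receptor, stood at 31.4, 28.8, 27.2 and 20.9 CPM in Cdkn1b-/- LP and at 6.59 and 31.4 CPM in mature luminal cells. Mature luminal library 1 was below all LP libraries and library 2 was level with the highest of them. In Cdkn1b+/+ rats it stood at 66.8, 57.6, 54 and 41.7 CPM and 17.2 and 14.8 CPM with no overlap. Its log2 fold change was 0.51 (standard error 0.42) in Cdkn1b-/- and 1.78 (standard error 0.45, adjusted p = 0.0275, edgeR) in Cdkn1b+/+ rats. The difference of the fold changes was -1.27, with a 95% interval from -2.53 to -0.01. Its unadjusted p was 0.0484, or 0.0742 under the block, and its adjusted p was 1.00 by edgeR.

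Prlr, the prolactin receptor, stood at 40.4, 59.8, 44.8 and 41.7 CPM in Cdkn1b-/- LP and 19.8 and 47.4 CPM in mature luminal cells, against 103, 128, 97.4 and 98.6 CPM and 28.9 and 38.1 CPM in Cdkn1b+/+ cells. The Cdkn1b-/- groups overlapped through mature luminal library 2, and the Cdkn1b+/+ groups did not overlap. The log2 fold changes were 0.47 (standard error 0.33) and 1.67 (standard error 0.35, adjusted p = 0.0201, edgeR). Their difference of -1.20 had a 95% interval from -2.19 to -0.20 and an unadjusted p of 0.0216 by edgeR (0.00542 under the block). After adjustment this difference passed neither with nor without the block. Foxa1, the pioneer factor of the estrogen receptor, stood at 24, 31.3, 22.1 and 22.1 CPM and 9.55 and 24.8 CPM, with log2 fold changes of 0.53 in Cdkn1b-/- and 1.34 in Cdkn1b+/+ rats. Mature luminal library 1 was the lowest here as well. Esr1, the estrogen receptor, stood at 6.79, 11.6, 7.84 and 10.9 CPM and 3.63 and 10.5 CPM, with log2 fold changes of 0.39 and 1.24. Without mature luminal library 1, the Cdkn1b-/- log2 fold changes were -0.20 for Pgr, -0.01 for Prlr and -0.17 for Esr1, so that their direction rested on that library. Calcr, the calcitonin receptor, stood at 0, 0, 0.0667 and 0 CPM and 0.204 and 0.279 CPM in Cdkn1b-/- cells, and at 0 in all 4 Cdkn1b+/+ LP libraries against 0.404 and 0.596 CPM in mature luminal cells.

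**Figure D4:**
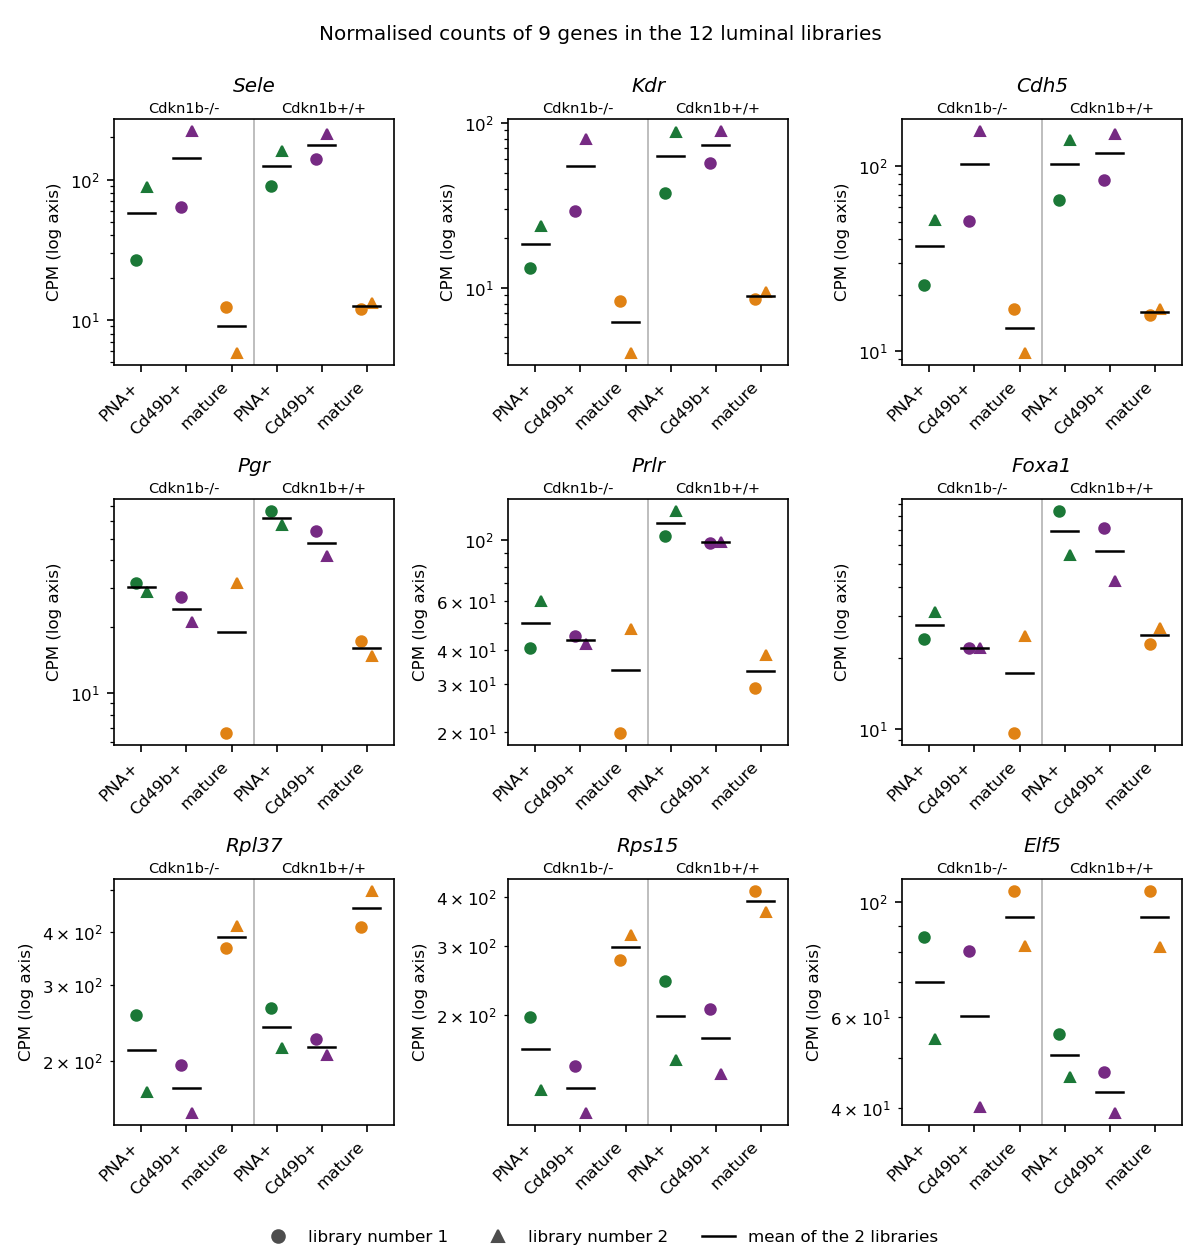
CPM on a log axis of 9 genes in the 12 luminal libraries, 1 point per library, by genotype and population, with the numbers 1 and 2 marked and a line at the mean of 2 libraries. Sele, Kdr and Cdh5 lie higher in LP in both genotypes, Pgr, Prlr and Foxa1 have Cdkn1b-/- mature luminal library 1 below and library 2 within the LP range, and Rpl37 and Rps15 lie lower in all LP libraries.

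In Cdkn1b+/+ rats 3 of 10 tested LP marker genes were called lower in LP (5.97% of all genes) and none higher (5%), and the median over the list was -0.56. In Cdkn1b-/- rats the median was -0.26 (-0.15 without Cd49b+ 2), 2 of 10 were lower without overlap (16.4% of all genes) and none passed. Elf5 stood at 85.6, 54.4, 80.4 and 40.2 CPM and 105 and 82.2 CPM in Cdkn1b-/- rats, and the groups overlapped through PNA+ 1. Its log2 fold change was -0.53 in Cdkn1b-/- (adjusted p = 0.359, edgeR) and -1.0 in Cdkn1b+/+ rats (adjusted p = 0.0392). Mia, a secreted protein first known from melanoma, stood at 38.3, 23.4, 26.3 and 27.4 CPM and 42.4 and 48.4 CPM with no overlap, and its log2 fold changes were -0.66 and -1.14. Bcl11a, a zinc finger factor of progenitors, stood at 4.35, 4.54, 4.24 and 4.43 CPM and 5.67 and 6.37 CPM, again with no overlap, and had -0.46 and -0.77. The general luminal genes had medians of -0.45 (-0.33 without Cd49b+ 2) and -0.77, and 10 of 11 were negative in either genotype. Krt19, a luminal keratin and the only one of the 11 called in Cdkn1b+/+ rats, stood at 1945, 1456, 1531 and 952 CPM and 2351 and 1770.1 CPM in Cdkn1b-/- rats, where PNA+ 1 was above mature luminal library 2.

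Milk protein genes took a large share of the reads in Cdkn1b-/- cells of both gates. The 12 milk genes summed to between 117232 and 207760 CPM in Cdkn1b-/- LP and between 124262 and 178813 CPM in mature luminal cells, against 30212 to 80650 and 51088 to 96154 CPM in the Cdkn1b+/+ groups. Csn2, beta-casein, stood at 89944, 148775, 51362 and 70379.7 CPM and 45502 and 113002 CPM in Cdkn1b-/- rats and at 19319, 1186, 13170.5 and 894 CPM and 19953 and 1472 CPM in Cdkn1b+/+ rats. Within Cdkn1b+/+ rats it followed the library's number. Lalba, alpha-lactalbumin, stood at 13721, 3104, 8812 and 905 CPM and 16871 and 2870.0 CPM in Cdkn1b-/- rats, and followed the number too. The median log2 fold change of the 12 was -0.09 in Cdkn1b-/- (0.09 without Cd49b+ 2) and -0.69 in Cdkn1b+/+ rats. Csn1s2b, the 1 milk gene called in Cdkn1b+/+ rats, stood at 329, 281, 232 and 159 CPM and 325 and 375 CPM in Cdkn1b-/- rats, with overlap, and its log2 fold changes were -0.48 and -1.06.

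Genes of mucosal defence, which protect secretory epithelia, had medians of -0.51 in Cdkn1b-/- (-0.21 without Cd49b+ 2) and -0.72 in Cdkn1b+/+ rats over 14 members. Within numbers the Cdkn1b-/- median difference was -0.07 for number 1 and -0.40 for number 2. Dmbt1, a scavenger receptor of epithelial surfaces, stood at 10.1, 25.7, 21.7 and 78.9 CPM and 5.87 and 4.42 CPM in Cdkn1b-/- rats. It was the member called higher in Cdkn1b+/+ LP (log2 fold change 3.03), its Cdkn1b-/- groups did not overlap (log2 fold change 2.73, or 1.90 without Cd49b+ 2), and as for Kdr, Cd49b+ 2 was the highest and PNA+ 1 the lowest LP library. Muc15, a membrane mucin, stood at 222, 429, 368 and 217 CPM and 159.7 and 128 CPM without overlap, with a log2 fold change of 1.10 in Cdkn1b-/- (adjusted p = 0.148, or 0.0511 under the block, edgeR) and 0.48 in Cdkn1b+/+ rats. The interaction for Muc15 had an unadjusted p of 0.129. Lcn2, the iron-binding lipocalin, stood at 3863, 1162, 3056 and 475 CPM and 5110.2 and 1191 CPM, and followed the number.

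Of 9 tested genes of the prolactin and Stat5 pathway, 2 were called higher in Cdkn1b+/+ LP (Prlr and Socs2) and 1 lower (Elf5), and none passed in Cdkn1b-/- rats. The medians were -0.15 (-0.03 without Cd49b+ 2) and -0.34. Socs2, an inhibitor of cytokine receptors that Stat5 induces, stood at 4.57, 8.49, 4.94 and 17.3 CPM and 1.99 and 6.7 CPM in Cdkn1b-/- rats, where mature luminal library 2 was within the LP range, and at 8.82, 7.27, 10 and 8.15 CPM and 2.47 and 1.96 CPM in Cdkn1b+/+ rats, with no overlap.

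Notch signalling, in which ligands on one cell trigger cleavage of receptors on the next and so free a partner of Rbpj, had medians of 0.38 in Cdkn1b-/- (0.11 without Cd49b+ 2) and 0.41 in Cdkn1b+/+ rats over 18 tested genes. Within numbers the median difference was -0.01 for number 1 and 0.52 for number 2 in Cdkn1b-/- rats. There 4 of 18 had an unadjusted p under 0.05, all higher (8.7% of all genes), and 1 passed under the block (0.859%). Of the ligands, Jag1 stood at 8.48, 14.5, 17.1 and 33.1 CPM and 6.64 and 6.75 CPM with no overlap, and Dll1 at 3.11, 7.44, 6.44 and 36.8 CPM and 3.27 and 3.02 CPM, where PNA+ 1 was below mature luminal library 1. Rbpj, the DNA-binding factor of the pathway and the member that passed under the block, stood at 65.2, 71.3, 96.1 and 65 CPM and 53.5 and 29.4 CPM. Its groups did not overlap, and Cd49b+ 2 was the lowest LP library. Without the block its log2 fold change came to 0.84 (standard error 0.27, adjusted p = 0.156) against 0.89 (standard error 0.27, adjusted p = 0.0491) in Cdkn1b+/+ rats, by edgeR. Under the block it was 0.90 (standard error 0.18, adjusted p = 0.0463, edgeR) in Cdkn1b-/- rats.

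Among 15 ErbB and FGF genes, with medians of 0.13 (0.23 without Cd49b+ 2) and 0.27, Fgfr2 was the 1 called in Cdkn1b+/+ rats. This receptor, needed for ductal growth, stood at 24.3, 22.3, 26.8 and 53.4 CPM and 8.48 and 21.5 CPM in Cdkn1b-/- rats without overlap, and at 116, 135, 128 and 142 CPM and 34.5 and 62.5 CPM in Cdkn1b+/+ rats. Its log2 fold changes were 1.08 and 1.43, the first with Cd49b+ 2 included, which was far above the other Cdkn1b-/- LP libraries. The 20 lipid synthesis genes had medians of 0.13 (0.27 without Cd49b+ 2) and 0.23, and 2 were called higher in Cdkn1b+/+ LP but none passed in Cdkn1b-/- rats.

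Cell cycle genes were of interest because p27 acts on G1. The 14 tested G1 cyclins, CDKs and CDK inhibitors had medians of -0.17 (-0.16 without Cd49b+ 2) and -0.12. Ccnd2, a D-type cyclin, stood at 2.17, 5.41, 5.31 and 21.9 CPM and 1.94 and 1.67 CPM in Cdkn1b-/- rats, where every LP library was above both mature luminal libraries and Cd49b+ 2 was far above the rest. It was called higher in Cdkn1b+/+ LP (log2 fold change 2.61, adjusted p = 0.046, edgeR) and had 2.27 in Cdkn1b-/- rats (1.25 without Cd49b+ 2). The 37 tested S phase genes had medians of 0.18 in Cdkn1b-/- (0.15 without Cd49b+ 2) and -0.05 in Cdkn1b+/+ rats. Under the block 2 passed as higher in Cdkn1b-/- LP (0.859% of all genes), and 6 were called higher and 6 lower in Cdkn1b+/+ LP (15.8% and 18.6%). Of these, Ubr7, a ubiquitin ligase, stood at 37.9, 37.1, 41.4 and 41.5 CPM and 23.8 and 18.6 CPM, and Rrm1, the large subunit of ribonucleotide reductase, at 41.5, 63.7, 47.8 and 49.9 CPM and 22.8 and 34 CPM. Neither gene overlapped between the groups. Their log2 fold changes were 0.90 and 0.84 in Cdkn1b-/- and 0.52 and 0.56 in Cdkn1b+/+ rats.

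The 46 tested G2 and M phase genes had medians of 0.41 (0.42 without Cd49b+ 2) and 0.32. In Cdkn1b-/- rats 39 were positive (44.3% of all genes were) and 12 higher without overlap (10.8% of all genes), but none passed. In Cdkn1b+/+ rats 32 were positive (46.4% of all genes) and 4 higher without overlap (22.3% of all genes). Bub1, the spindle checkpoint kinase, stood at 4.75, 11.7, 7.01 and 10.2 CPM and 1.94 and 2.84 CPM in Cdkn1b-/- rats, with no overlap, and had log2 fold changes of 1.81 in Cdkn1b-/- and 0.43 in Cdkn1b+/+ rats. Its interaction had an unadjusted p of 0.116. Smc4, a condensin subunit, stood at 12.6, 31.3, 30.2 and 36.8 CPM and 12.1 and 9.96 CPM, with 1.33 and 1.31. In both genes PNA+ 1 was the LP library nearest to the mature luminal ones.

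Of the stress genes, the 15 heat shock genes had medians of 0.09 in Cdkn1b-/- (-0.07 without Cd49b+ 2) and -0.02 in Cdkn1b+/+ rats, and the 18 immediate early genes of -0.14 (-0.19 without Cd49b+ 2) and -0.36. Hspe1, the mitochondrial co-chaperonin, stood at 150.3, 230.3, 133 and 167 CPM and 217 and 412 CPM in Cdkn1b-/- rats. PNA+ 2 was above mature luminal library 1, yet the gene passed as lower in LP under the block (log2 fold change -0.84 in that fit, adjusted p = 0.0473, edgeR). Without the block its log2 fold change was -0.89 in Cdkn1b-/- rats (adjusted p = 0.170, edgeR) and -1.06 in Cdkn1b+/+ rats, where it was called lower in LP. Hspa4, a chaperone of the Hsp110 family, stood at 251, 214, 337 and 216 CPM and 213 and 123 CPM, all LP libraries lying above both mature luminal ones.

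Leukocyte genes were low throughout. The 13 myeloid genes summed to between 82.0 and 134 CPM in Cdkn1b-/- LP and between 138 and 173 CPM in mature luminal cells, and in Cdkn1b+/+ rats to between 119 and 229 and between 141 and 402 CPM. All 13 had a negative log2 fold change in Cdkn1b-/- rats (55.6% of all genes did), with a median of -1.04 (-1.13 without Cd49b+ 2), and 7 were lower without overlap (16.4% of all genes). In Cdkn1b+/+ rats 4 were positive, 3 were lower without overlap (21.1% of all genes), and the median was -0.60. Called lower in Cdkn1b+/+ LP were 2 of the 13 without the block (5.97% of all genes) and 4 with it (18.6%). None of the 13 passed in Cdkn1b-/- rats with or without the block. Aif1, a macrophage protein, stood at 0.666, 1.01, 0.667 and 1.1 CPM and 1.28 and 3.91 CPM. Tyrobp, an adaptor of myeloid receptors, stood at 1.02, 0.768, 1.13 and 1.53 CPM and 2.71 and 2.88 CPM, with log2 fold changes of -1.32 in Cdkn1b-/- and 0.02 in Cdkn1b+/+ rats. C1qc, a chain of complement C1q that was added after its values were seen, stood at 0.754, 1.05, 0.734 and 1.3 CPM and 2.5 and 5.07 CPM. It passed under the block (log2 fold change -1.94 in that fit, adjusted p = 0.0463, edgeR). Without the block it had -1.97 (adjusted p = 0.150, edgeR), against -0.23 in Cdkn1b+/+ rats. For Aif1, Tyrobp and C1qc mature luminal library 2 was the highest and the groups did not overlap. C1qb, another C1q chain named after its values were seen, passed under the block in Cdkn1b-/- and in Cdkn1b+/+ rats (adjusted p = 0.0463 and 0.0289, edgeR). Its log2 fold changes without the block were -1.53 and -0.86. Cd163, a scavenger receptor of macrophages, stood at 0.222, 0, 0.2 and 0 CPM in Cdkn1b-/- LP and 0.46 and 1.44 CPM in mature luminal cells. The lymphoid genes together summed to at most 8.12 CPM in a Cdkn1b-/- luminal library.

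Of the lists, ribosomal protein genes passed most often under the block in Cdkn1b-/- rats. This list was added after its values were seen. Of 80 tested members 52 were called lower in Cdkn1b-/- LP (0.921% of all genes were), 72 were lower without overlap (16.4% of all genes), and the median log2 fold change was -0.81. In Cdkn1b+/+ rats 47 were called lower without the block (5.97% of all genes), 74 with it (18.6%), and the median was -0.86. Within numbers the medians were -0.53 for number 1 and -1.15 for number 2 in Cdkn1b-/- rats and -0.65 and -1.08 in Cdkn1b+/+ rats. Without Cd49b+ 2 the Cdkn1b-/- median was -0.68. Together they made up 1.25% to 1.69% of the reads on genes in Cdkn1b-/- LP, 2.13% to 2.65% in mature luminal cells, and 1.81% to 2.57% and 3.28% to 3.39% in Cdkn1b+/+ rats.

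Many ribosomal protein mRNAs begin with a C and a run of pyrimidines, the 5′ terminal oligopyrimidine motif through which their translation is controlled, and starts of 3 of the genes named below are shown for that reason. The sequences come from the RefSeq promoter table of build GRCr8, which is not the rn6 build of the counts. Each shows 10 bases before the annotated start and 20 from it, with the C and the run of C and T that begins at the start in capitals.
Rpl37 (chr2:55942935-55942964, + strand): ggcgtactttCTCTTCCggtctctttggcc
Rps15 (chr7:10068096-10068125, - strand): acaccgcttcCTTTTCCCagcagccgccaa
Rps27 (chr2:177964587-177964616, - strand): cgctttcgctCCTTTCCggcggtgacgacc
Of 80 tested ribosomal protein genes 64 had a promoter in the table, and 24 of these (37.5%) had a C followed by at least 4 C or T on the gene's strand at the annotated start. Of all tested genes 9686 had one, and 279 (2.88%) had such a run.

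Rpl37, a protein of the large subunit, stood at 256, 169, 195 and 151 CPM in Cdkn1b-/- LP and 367 and 411 CPM in mature luminal cells. All LP libraries were below both mature luminal ones. The log2 fold change of Rpl37 came to -1.01 (standard error 0.21, adjusted p = 0.148 without and 0.0463 with the block, edgeR) in Cdkn1b-/- and -1.0 (standard error 0.21, adjusted p = 0.0201) in Cdkn1b+/+ rats. The difference between them was -0.02, with a 95% interval from -0.67 to 0.64. Rps15, of the small subunit, stood at 198, 129, 148 and 112 CPM and 276 and 319.7 CPM, with -1.02 and -1.07. Rps27, also of the small subunit, stood at 505, 278, 393 and 256 CPM and 744 and 763 CPM, with -1.07 and -1.06, and Rpl36a at 55, 34.6, 42.7 and 31.5 CPM and 83.2 and 97.4 CPM, with -1.14 and -1.14. None of these overlapped, and Cd49b+ 2 was the lowest library for each. Rpl37a, the 1 member with a positive fold change, was at 0.178, 0.349, 0.267 and 0.399 CPM and 0.0511 and 0 CPM. Ribosomal protein genes have many processed pseudogenes, and how reads from such copies were divided is uncertain, since reads that aligned to more than 1 place were not counted.

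Other properties of the libraries moved with the sorted population in both genotypes. Cdkn1b-/- LP libraries had a count on 13132 to 14183 genes and the mature luminal libraries on 14674 to 14946, and the Cdkn1b+/+ libraries on 13048 to 13501 and 15204 to 15403. Olfactory and vomeronasal receptor genes, of which 1381 are in the files and which mammary cells are not known to use, had a count on 32 to 287 genes in Cdkn1b-/- LP and 458 to 531 in mature luminal cells. In Cdkn1b+/+ rats these were 27 to 103 and 615 to 770. The filter kept 65 receptor genes, and a gene can pass it through the mature luminal libraries alone. The counts of lower genes that follow therefore partly repeat the filter and are no test of a difference. Of the 65 receptor genes tested, 47 were lower without overlap in Cdkn1b-/- LP (16.4% of all genes) and 60 in Cdkn1b+/+ LP (21.1%). In Cdkn1b-/- rats 43 had an unadjusted p under 0.05 as lower (8.89% of all genes), none passed without the block and 1 passed with it (0.921%). In Cdkn1b+/+ rats 48 were called lower without the block (5.97%) and 59 with it (18.6%). The share of all counts set aside as aligned to more than 1 place was 35.4% to 40.0% in Cdkn1b-/- LP and 47.7% to 53.7% in mature luminal cells. Whether a read with several alignments was entered more than once there is not known. Over 8599 genes with a mean log2 CPM above 2, the log2 fold change correlated with transcript length (Spearman's rho 0.43 in Cdkn1b-/- and 0.43 in Cdkn1b+/+ rats, across genes, which are not independent and share libraries). Their part in the results above was not tested.

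The genes with the smallest interaction p were named by rule, whatever the adjusted p, which was 1.00 for each of the 12 by edgeR. Those lower in the Cdkn1b-/- contrast were Prpf4b, Ubn2, Mnt, Ehbp1, Osbpl9 and Rhobtb3. Prpf4b, a kinase of the spliceosome, stood at 45, 59.8, 71.7 and 60.1 CPM and 60.2 and 90.6 CPM in Cdkn1b-/- cells and at 66.6, 77.9, 93.7 and 79.2 CPM and 56.7 and 37.5 CPM in Cdkn1b+/+ cells. The difference of its fold changes was -1.10 (95% interval -1.84 to -0.37, unadjusted p = 0.00618 by edgeR). The Cdkn1b+/+ groups did not overlap and the Cdkn1b-/- groups did. Mnt, a repressor that pairs with Max, stood at 11.3, 7.75, 9.61 and 9.59 CPM and 13.5 and 14.4 CPM in Cdkn1b-/- cells and at 12.1, 12.3, 10.8 and 9.22 CPM and 6.02 and 9.45 CPM in Cdkn1b+/+ cells. In Cdkn1b-/- cells LP was below mature luminal without overlap, while the Cdkn1b+/+ groups overlapped, and the difference was -1.07 (95% interval -1.78 to -0.35). Osbpl9, a lipid transfer protein, stood at 93.2, 109, 111 and 94.5 CPM and 78.4 and 81.6 CPM in Cdkn1b-/- and 115, 123, 111 and 116 CPM and 52 and 62.9 CPM in Cdkn1b+/+ cells, higher in LP without overlap in both, with a difference of -0.67. For Ubn2, Ehbp1 and Rhobtb3 the differences were -0.72, -1.13 and -0.90.

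Those higher in the Cdkn1b-/- contrast were Hspa1l, Sord, Paqr4, Extl1, Fuk and Khdrbs3. Sord, sorbitol dehydrogenase, stood at 11.5, 11.1, 10.9 and 11.9 CPM and 9.65 and 11.8 CPM in Cdkn1b-/- cells, which overlapped, and at 11.7, 12.6, 11 and 11.9 CPM and 15.2 and 19.8 CPM in Cdkn1b+/+ cells, which did not. The difference was 0.65 (95% interval 0.09 to 1.22). Hspa1l, a heat shock protein, had the largest difference of the 6, 4.04, with an interval from 0.75 to 7.33, and stood at 49.3 and 4.89 CPM in Cdkn1b+/+ mature luminal libraries 1 and 2 against 5.86, 2.38, 5.96 and 5.33 CPM in LP, so that library 1 alone was high. For Paqr4, Extl1, Fuk and Khdrbs3 the differences lay between 0.79 and 0.85. Srrm2, a splicing factor named after its values were seen, passed as lower in Cdkn1b-/- LP under the block (log2 fold change -1.09 in that fit, adjusted p = 0.0463, edgeR). It stood at 333, 234, 370.0 and 212 CPM and 577 and 609 CPM without overlap. Without the block its log2 fold change was -1.05 (adjusted p = 0.148, edgeR), against -0.03 in Cdkn1b+/+ rats. Its interaction had an unadjusted p of 0.0219 by edgeR and after adjustment passed neither with nor without the block.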

How the data were processed

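RNA was sequenced from 6 Cdkn1b-/- and 6 Cdkn1b+/+ sorted luminal libraries of 9 weeks. The authors made the gene counts with htseq-count on refGene, after alignment to rn6 by STAR 2.5.1b of single-end reads from libraries made with the SMARTer kit for small amounts of RNA. The deposited counts are not normalized. Counts that htseq-count did not assign to a gene (47.1% to 70.9% of all its counts) were left out. Counts on genes ranged from 21545344 to 33859550 per library.

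All 16 libraries of 9 weeks, including 4 basal ones, were fitted together in R 4.3.3 with edgeR 4.0.16: filterByExpr (12809 of 17356 genes kept), TMM, 6 groups of genotype and population, the quasi-likelihood test with Benjamini-Hochberg adjustment, threshold 0.05. The test without the block was checked on simulated counts. These were drawn independently for each library, so the check does not cover libraries that deviate together. DESeq2 1.42.0, RLE, other filters, other definitions of LP and each library left out were alternatives. No pair of libraries in a group was a duplicate. Libraries of a number deviated together (residual correlations 0.261 to 0.803 over 12 pairs), hence the block of number within genotype. The labels do not say what a number marks, and p-values then measure the spread between libraries, which may be technical.

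Genes were named by a rule: Cdkn1b, up to 12 per direction passing in the Cdkn1b-/- comparison without the block (0 found), up to 6 per direction with the smallest interaction p, and members of 21 lists. The libraries and lists were chosen with earlier results of these data known, and the vascular, ribosomal protein and receptor lists and genes named as such were added after their values were seen. Gene CPM are scaled with TMM factors. Sums over lists are CPM of reads on genes.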

Additional observations from a re-analysis of the deposited data

Results flagged for a closer look

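In 182 groups of 4 LP libraries, the highest or lowest library was tested with Dixon's criterion, which chance passes in about 1 in 20 groups, and 15 passed. Of these, 11 were library Cd49b+ 2 of the Cdkn1b-/- rats. Its endothelial genes summed to 1318 CPM (141 to 328 in the other Cdkn1b-/- LP libraries), its basal genes to 6672 CPM (851 to 1342) and its lymphoid genes to 6.42 CPM (2.60 to 2.76).

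Among the basal genes, Myh11 stood at 733 CPM in that library against 26.1 to 112 CPM in the other Cdkn1b-/- LP libraries, Krt5 at 168 CPM against 11.5 to 35.2 CPM and Acta2 at 111 CPM against 6.88 to 15.2 CPM. The ligand Dll1 stood at 36.8 CPM against 3.11 to 7.44 CPM and the cyclin Ccnd2 at 21.9 CPM against 2.17 to 5.41 CPM. The receptor Fgfr2 stood at 53.4 CPM against 22.3 to 26.8 CPM, Pparg at 16.7 CPM against 4.13 to 5.94 CPM and the RNA-binding protein Khdrbs3 at 14.2 CPM against 6.66 to 7.67 CPM.

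The other 4 were single values in other libraries. Calcr stood at 0.0667 CPM in Cd49b+ 1 of the Cdkn1b-/- rats and at 0 in the other Cdkn1b-/- LP libraries. In the Cdkn1b+/+ rats, Fabp4 stood at 477 CPM in Cd49b+ 1 against 373 to 386 CPM, Paqr4 at 61.4 CPM in PNA+ 1 against 48.2 to 49.4 CPM, and Cd163 at 0.0627 CPM in PNA+ 2 against 0 in the others.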

How the results depend on the processing

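The Cdkn1b-/- count of 0 genes became 564 with DESeq2, 228 with the replicate block, 1524 with the block and the 12 luminal libraries alone, and 1237 with the block and Cd49b+ libraries alone as LP, while PNA+ libraries alone with the block gave 0, as did PNA+ and Cd49b+ libraries summed per number without it. Leaving out 1 library gave 0 to 122 genes, and with the block (Cdkn1b-/- libraries only) 0 to 2705: 0 without Cd49b+ 1, PNA+ 2 or mature luminal library 2, 1 without mature luminal library 1, 2 without Cd49b+ 2 and 2705 without PNA+ 1. Of the 228 genes, 1 was also called with the block and without Cd49b+ 2, and 152 were among the 564 of DESeq2.

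The Cdkn1b+/+ count of 1406 genes was 676 with at least 10 counts in every library, 2637 with DESeq2, 0 with PNA+ or Cd49b+ libraries alone as LP, 0 with PNA+ and Cd49b+ libraries summed per number, and 0 to 1964 with 1 library left out. With the block it was 4406, and with the block 5038 in the 12 luminal libraries alone, 3197 with Cd49b+ alone, 2043 with PNA+ alone, and, without 1 Cdkn1b-/- library, 3948 (Cd49b+ 1), 5197 (Cd49b+ 2), 4665 and 4632 (mature luminal libraries 1 and 2), 4717 (PNA+ 1) and 4264 (PNA+ 2). RLE scaling split the Cdkn1b+/+ calls into 520 higher and 981 lower, against 641 and 765, and moved the median interaction over all genes to 0.11 on the log2 scale. The interaction count was 0 in every alternative run, with 96 to 1385 genes at an unadjusted p under 0.05. The causes of these changes were not tested.

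For single genes, 12 values changed sign, 131 kept direction and passed in the alternative only, and 1733 kept direction and passed in neither run. The 12 that changed sign concern the Cdkn1b-/- log2 fold change. With 1 library left out it ranged from -0.20 (without Cd49b+ 2) to 1.93 for Cldn5, from -0.055 (without Cd49b+ 2) to 2.00 for Acta2, from -0.20 (without mature luminal library 1) to 2.03 for Pgr, from -0.011 (likewise) to 1.23 for Prlr and from -0.17 (likewise) to 1.35 for Esr1. With the block, it was -0.066 for Acta2 without Cd49b+ 2 and -0.26 for Pgr without mature luminal library 1. With PNA+ libraries alone as LP it was -0.53 for Krt5 and -0.37 for Acta2, and with the block as well -0.032 for Cldn5, -0.65 for Krt5 and -0.49 for Acta2. The alternatives that join the block with another choice were added after seeing the data. Where an arm was left with 1 mature luminal library, that library was assumed to vary like the other groups.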
